A study of Mus musculus with 16 samples.

Results

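Transcript levels of 10 genes of inflammasomes and pyroptosis were examined in bone marrow-derived dendritic cells (BMDCs) that lacked STING or the transcription factors IRF1 or IRF3 and IRF7. The members were chosen by gene symbol: the sensors Nlrp3, Nlrc4, Naip2, Naip5 and Nod2, the adaptor Pycard, the caspases Casp1, Casp4 and Casp12, and the pore-forming protein Gsdmd. All 10 were found among the 23356 genes measured. The marrow, cultured with GM-CSF plus IL-4, came from wild-type (WT), Tmem173-/-, Irf1-/- and Irf3/7-/- mice, all labelled C57BL/6. In each knockout the gene is deleted in every cell of the animal, Tmem173 encodes STING, and Irf3/7-/- is a double knockout. Cells were left untreated (NT) or were given c-di-GMP (CDG), a bacterial cyclic dinucleotide that STING binds, at 25 μg/ml for 18 h according to the sample labels, whereas the text of the study names a higher dose. The 16 samples form 8 conditions of 2 samples each, and neither the age of the mice nor the number of animals behind a culture is in the labels.

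Inflammasomes are protein platforms that assemble around a cytosolic sensor once it has met a microbial product or a sign of damage. The sensor recruits ASC, the product of Pycard, and ASC gathers caspase-1, which matures IL-1β and IL-18 and cleaves gasdermin D, whose freed part opens pores in the plasma membrane. A non-canonical route needs no such platform: caspase-11, the product of mouse Casp4, binds bacterial lipopolysaccharide in the cytosol and cleaves gasdermin D itself, and the death that follows is called pyroptosis.

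The authors combined the 2 samples of each condition in Cuffdiff, so a level here is 1 value in FPKM, a count of fragments scaled by transcript length and by library size, with a confidence interval. There is no spread between samples and no p-value, and the number of reads behind a level is not in the file used. A difference was called when log2(FPKM + 0.1) differed by more than 2-fold, the intervals of both conditions did not overlap, at least 1 of them reached 1 FPKM and Cuffdiff gave the status OK in both. As FPKM is scaled by transcript length, levels of different genes can also be set side by side.

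The targeted genes fitted their labels in part, and the Irf3/7-/- conditions are named by their labels throughout. Tmem173 was at 8.97 and 7.49 FPKM in Tmem173-/- BMDCs, while the other 6 conditions had 77.0 to 118 FPKM. Irf1 in Irf1-/- BMDCs was at 25.9 FPKM without and 116 FPKM with c-di-GMP, against 149 and 245 FPKM in WT, and was also low in Tmem173-/- BMDCs, at 24.1 and 23.3 FPKM. Irf7 stayed at or below 4.97 FPKM in Irf3/7-/- BMDCs, whereas Irf3 was at 7.74 FPKM untreated but at 20.2 FPKM (14.8 to 25.7) in the treated condition labelled Irf3/7-/-, no lower than the 15.8 FPKM (11.6 to 20.0) of treated WT. Values of whole genes include exons outside a deletion. Of the 9 dendritic cell markers, 8 or 9 reached 1 FPKM in each condition, with Cd209a at or near 0 in WT. Some of them differed between cultures: H2-Aa and H2-Ab1, which encode class II chains, were lower in Irf1-/- than in WT BMDCs both untreated (2.83-fold and 2.34-fold) and treated (3.08-fold and 2.69-fold), Itgax was 2.44-fold higher and Ccr7 10.98-fold lower in treated Tmem173-/- BMDCs, and Flt3 was 2.24-fold higher in treated Irf3/7-/- BMDCs. Cd209a was higher than in WT in both Tmem173-/- conditions and in untreated Irf1-/- BMDCs, and Ccr7 was also lower in untreated Tmem173-/- BMDCs. Ccr7 is itself a gene that rose with c-di-GMP. It went from 265 to 1257 FPKM in WT, from 235 to 1026 FPKM in Irf1-/- and from 171 to 1208 FPKM in Irf3/7-/- BMDCs. In Tmem173-/- BMDCs it was at 130 FPKM untreated and 114 FPKM treated. The part of these marker differences in the levels of the members was not tested.

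Across the 8 conditions the members covered a wide span of levels. In untreated WT BMDCs Pycard was the highest at 117 FPKM, above Gsdmd at 62.8 FPKM and Casp1 at 49.5 FPKM. The intervals of Gsdmd and Casp1 overlapped, as did those of Casp4 at 20.1 FPKM and Nlrp3 at 19.9 FPKM, which came next. Naip2 was at 11.1 FPKM, Nod2 at 5.33 FPKM, Nlrc4 at 4.19 FPKM, Naip5 at 3.77 FPKM and Casp12 at 0.488 FPKM, where Nod2, Nlrc4 and Naip5 overlapped. After c-di-GMP the order in WT was changed: Casp1 at 157 FPKM, Gsdmd at 126 FPKM and Casp4 at 125 FPKM stood above Pycard at 83.1 FPKM, and the intervals of all 4 overlapped with that of a neighbour in this order. The highest level of a member over the conditions was 1.95 times its lowest for Nlrp3, 2.15 to 2.28 times for Nlrc4, Naip2, Naip5 and Pycard, 2.91 times for Gsdmd, 4.85 times for Nod2, 7.68 times for Casp1 and 14.6 times for Casp4. Casp12 reached 1 FPKM in 1 condition.

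**Figure D1:**
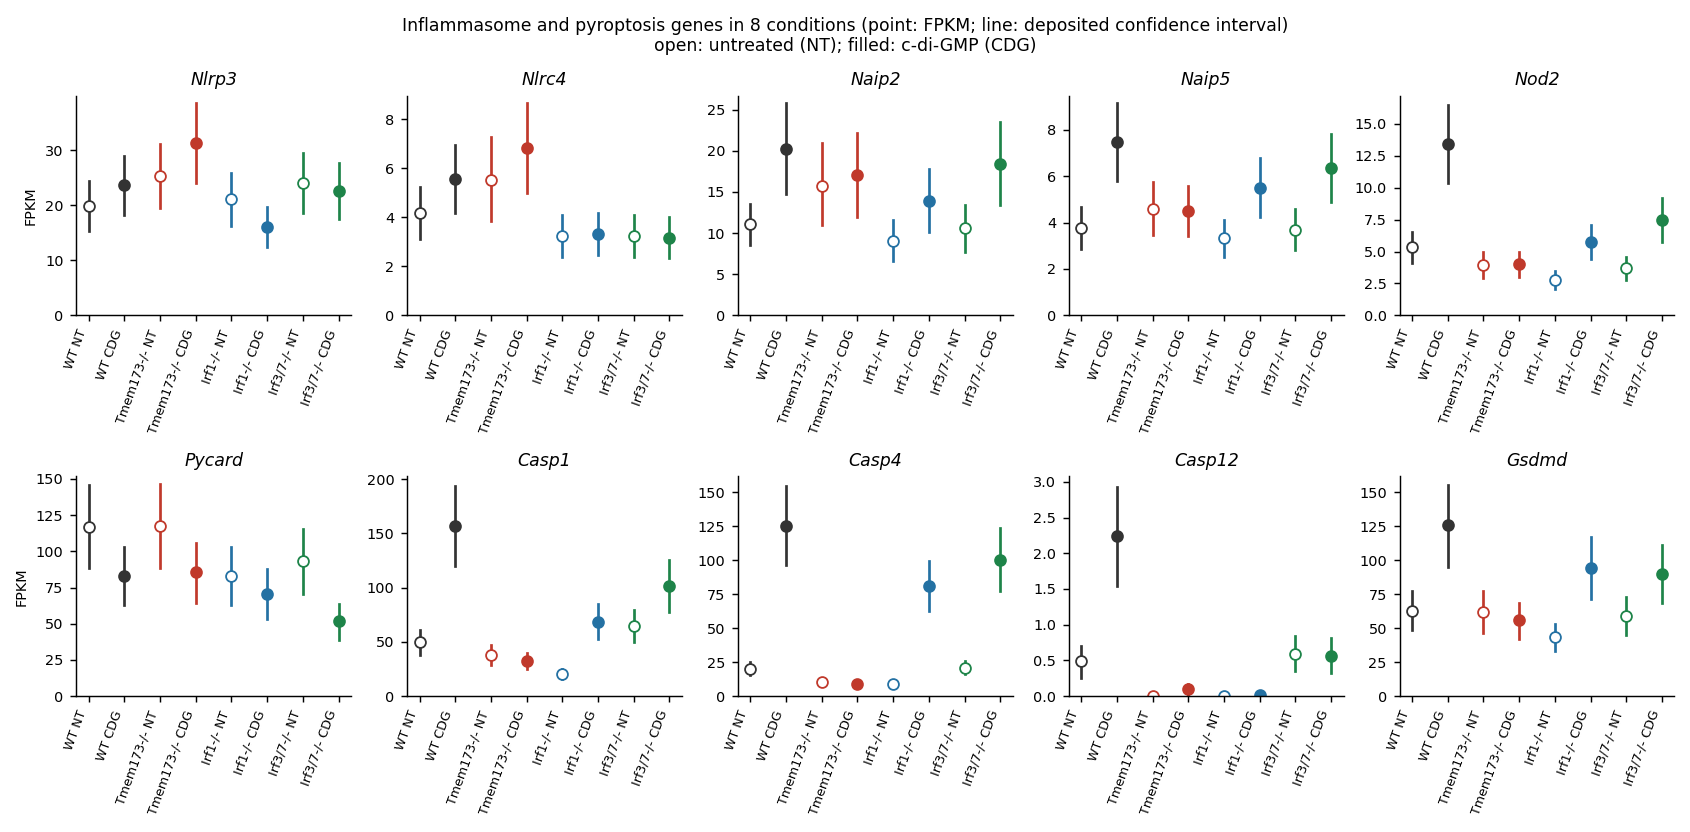
FPKM of the 10 members (vertical axes, linear from 0) in 8 conditions (horizontal axes). Points are the deposited values, lines their confidence intervals, open points untreated and filled points c-di-GMP, with 1 colour per genotype. Casp4 in treated WT (125 FPKM), Irf1-/- (81.1 FPKM) and Irf3/7-/- (100.1 FPKM) BMDCs stands apart from the other 5 conditions, whereas the Nlrp3 intervals of most conditions overlap.

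Casp1, Casp4 and Casp12 lie side by side in the same orientation on chromosome 9, and the start regions of these genes and of Nod2, the members called higher in WT, are shown for the letters that STAT, IRF and NF-κB proteins are known to prefer. The bases before the start of each gene are given 5′ to 3′, 250 for each gene, from RefSeq on build GRCm38.p6, all on the plus strand: chr9:5298267-5298516 for Casp1, chr9:5308599-5308848 for Casp4, chr9:5345226-5345475 for Casp12 and chr8:88647097-88647346 for Nod2. Capitals mark matches to the NF-κB consensus in Casp4 and to the gamma-activated site in Casp12.
Casp1: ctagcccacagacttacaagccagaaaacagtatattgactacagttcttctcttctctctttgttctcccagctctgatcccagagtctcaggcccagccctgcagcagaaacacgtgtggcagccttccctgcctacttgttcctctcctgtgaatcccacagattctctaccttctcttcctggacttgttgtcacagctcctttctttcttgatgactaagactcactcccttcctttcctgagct
Casp4: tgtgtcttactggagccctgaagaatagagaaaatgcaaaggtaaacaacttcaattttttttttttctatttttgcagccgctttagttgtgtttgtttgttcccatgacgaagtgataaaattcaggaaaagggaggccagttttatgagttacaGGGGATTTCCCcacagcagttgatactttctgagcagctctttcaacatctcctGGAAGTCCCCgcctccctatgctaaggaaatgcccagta
Casp12: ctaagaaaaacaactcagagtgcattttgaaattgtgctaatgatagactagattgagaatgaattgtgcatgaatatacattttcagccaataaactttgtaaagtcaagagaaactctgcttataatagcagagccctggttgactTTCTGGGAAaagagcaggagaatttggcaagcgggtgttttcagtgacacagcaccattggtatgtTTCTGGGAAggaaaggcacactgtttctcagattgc
Nod2: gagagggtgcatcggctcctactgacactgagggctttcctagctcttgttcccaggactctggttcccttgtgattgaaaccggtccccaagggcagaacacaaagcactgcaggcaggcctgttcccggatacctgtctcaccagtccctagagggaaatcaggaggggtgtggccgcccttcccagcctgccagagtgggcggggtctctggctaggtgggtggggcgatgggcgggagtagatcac
The Casp4 window held 3 matches to the NF-κB consensus, starting 93, 92 and 39 bases before the start, the first 2 of which overlap each other. Casp12 held 2 copies of the gamma-activated site TTCNNNGAA, 102 and 36 bases before its start, and both copies read TTCTGGGAA. Casp1 and Nod2 held no match to either, and none of the members searched held the interferon-stimulated response element GAAANNGAAA. Each motif was searched on both strands. Over all 32851 promoter windows of the same length, 7.25% held the NF-κB consensus, 7.02% the gamma-activated site, 0.317% at least 2 copies of it and 2.98% the interferon-stimulated response element. Sequences were matched for 9 of the 10 members, with 11 windows in all. Gsdmd was not matched. In the remaining members, 1 of the 2 windows of Nlrp3 and that of Naip5 held an NF-κB match. These matches describe the letters and not the binding of a factor.

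With c-di-GMP, 4 of the 10 members rose in WT BMDCs, namely Nod2, Casp1, Casp4 and Casp12, and none fell. Over all 11201 genes tested, 10.5% were called higher and 9.96% lower. Gsdmd missed the 2-fold threshold narrowly, and with Naip2 and Naip5 it made 7 members with a higher level and intervals that did not overlap, which held for 14.1% of all genes tested. The median log2 difference of the 10 members was 0.98, against 0.0033 for all genes tested. In Tmem173-/- BMDCs none of 9 members was called with c-di-GMP, where 0.0460% of genes were higher and 0.00920% lower, and the median of the members there was -0.03. In Irf1-/- BMDCs 4 of 9 members rose, Nod2, Casp1, Casp4 and Gsdmd, and none fell, with 9.67% of all genes higher and 7.81% lower. With Naip5, 5 members were higher there with intervals apart, against 12.8% of all genes. In Irf3/7-/- BMDCs 1 of 9 members rose, Casp4, where 10.2% of all genes were higher and 7.68% lower. Intervals lay apart for 4 members with a higher level there (Naip2, Naip5, Nod2 and Casp4) and for 1 with a lower level (Pycard), against 13.5% and 11.4% of all genes. The member left out of the last 3 comparisons was Casp12, which was below 1 FPKM on both sides.

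**Figure D2:**
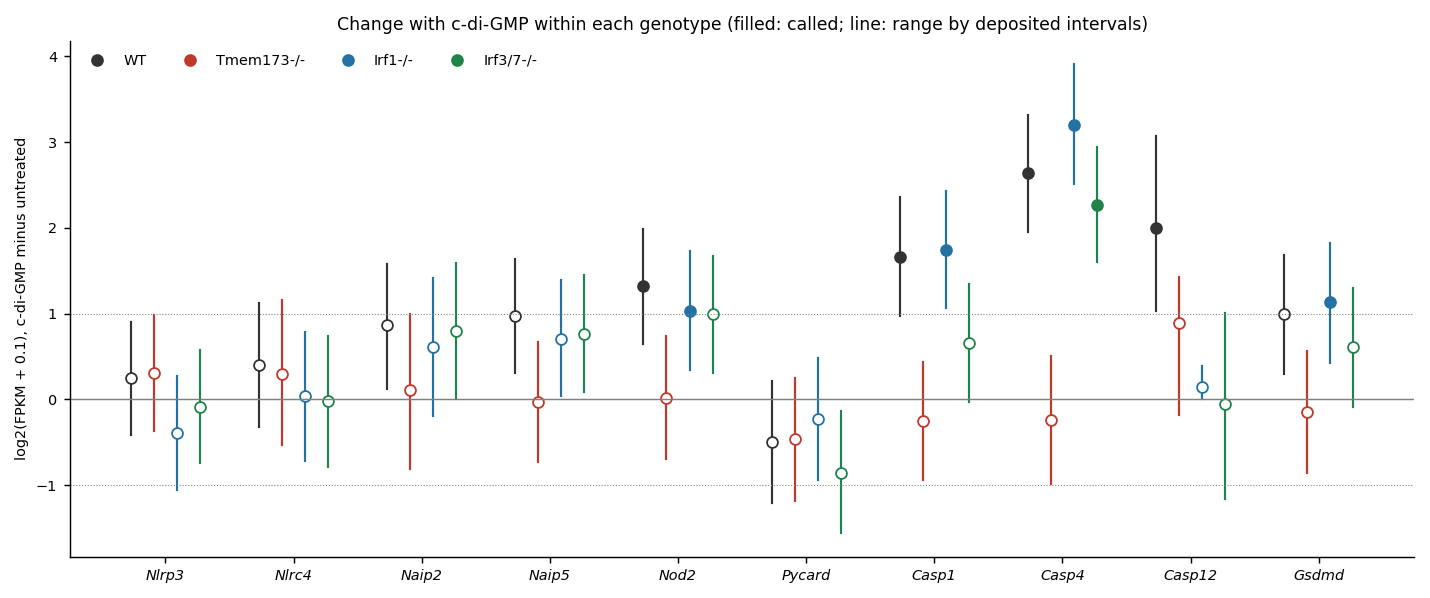
Difference in log2(FPKM + 0.1) between treated and untreated BMDCs (vertical axis) for the 10 members (horizontal axis) in 4 genotypes (colours). Points are differences, filled where called, and lines run from the smallest to the largest difference that the deposited intervals allow. Casp4 has the largest difference in WT (2.63), Irf1-/- (3.20) and Irf3/7-/- (2.27), and the open Casp12 points of the knockouts were not tested.

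Among treated BMDCs, 5 of 10 members were lower in Tmem173-/- than in WT (Nod2, Casp1, Casp4, Casp12 and Gsdmd) and none was higher, against 13.5% and 12.9% of all genes tested. With Naip5, intervals lay apart for 6 lower members, against 17.0% of all genes. In treated Irf1-/- BMDCs 3 of 10 members were lower (Nod2, Casp1 and Casp12) and none was higher, against 4.91% and 2.65% of all genes. In the treated condition labelled Irf3/7-/-, 1 member was lower (Casp12) and none was higher, against 2.69% and 4.61% of all genes, and with Nlrc4 and Nod2 the intervals lay apart for 3 lower members, against 4.34% of all genes. Without treatment no member of 9 was called in Tmem173-/- BMDCs, where 5.04% of all genes were higher and 5.95% lower. Casp4 alone was lower there with intervals apart, against 7.62% of all genes. Untreated Irf1-/- BMDCs had 2 lower members of 9, Casp1 and Casp4, and no higher one, against 3.52% and 1.26% of all genes, and with Nod2 the intervals lay apart for 3, against 4.38%. No member of 9 was called in untreated Irf3/7-/- BMDCs, where 1.17% of all genes were higher and 0.863% lower. The comparisons with treated WT share the treated WT values and those with untreated WT share the untreated ones.

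**Figure D3:**
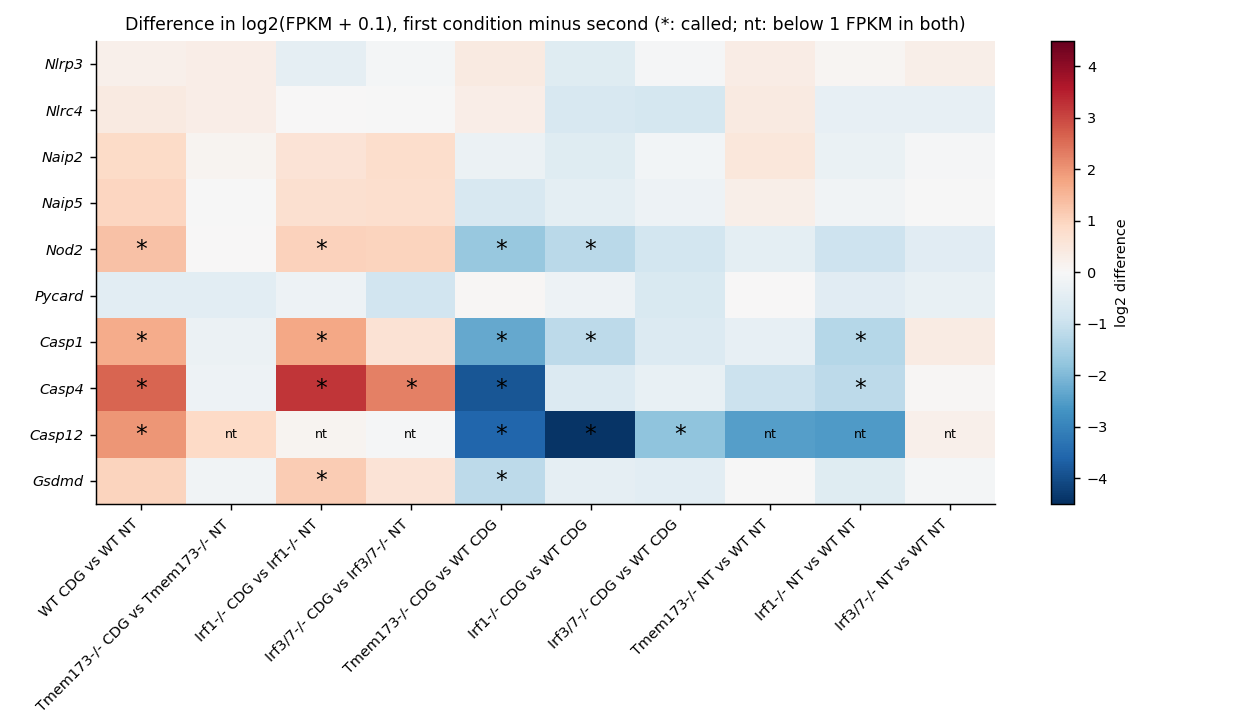
Difference in log2(FPKM + 0.1), first condition minus second, for 10 members (rows) in 10 comparisons (columns). Red is higher and blue lower, a star marks a called difference, and nt marks a gene below 1 FPKM in both conditions. Stars fall in the rows of Nod2, Casp1, Casp4, Casp12 and Gsdmd and in none of the other 5.

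Casp4 (chromosome 9, 5308860 to 5336791), the lipopolysaccharide-binding caspase of the non-canonical pathway, had the largest response. In WT BMDCs it was at 20.1 FPKM (15.4 to 24.7) untreated and 125 FPKM (96.2 to 154) treated, 6.21-fold higher. Without STING the levels were 10.2 FPKM (7.58 to 12.7) and 8.59 FPKM (6.39 to 10.8). Irf1-/- BMDCs had 8.73 FPKM (6.53 to 10.9) untreated and 81.1 FPKM (62.9 to 99.3) treated, and Irf3/7-/- BMDCs had 20.7 FPKM (15.97 to 25.4) and 100.1 FPKM (77.1 to 123). The 3 treated conditions with STING lay high with overlapping intervals, untreated WT and Irf3/7-/- lay lower, and both Tmem173-/- conditions and untreated Irf1-/- lay lowest, each of these layers apart from the next. Casp4 rose 9.20-fold in Irf1-/- and 4.82-fold in Irf3/7-/- BMDCs. The log2 difference from WT in Irf1-/- BMDCs was -1.19 before treatment, which was called, and -0.63 after it, when the intervals overlapped. In Tmem173-/- BMDCs it was -0.98 before treatment, with intervals apart but below the 2-fold threshold, and -3.85 after it, which was called.

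Casp1 (chromosome 9, 5298517 to 5307281) encodes the protease that canonical inflammasomes activate. Its level was 49.5 FPKM (37.8 to 61.3) in untreated and 157 FPKM (120.3 to 194) in treated WT BMDCs, 3.16-fold higher. The Tmem173-/- levels were 38.2 FPKM (29.1 to 47.3) and 32.1 FPKM (24.7 to 39.5). Irf1-/- BMDCs had 20.4 FPKM (15.6 to 25.2) and 68.7 FPKM (52.8 to 84.5), and Irf3/7-/- BMDCs 64.6 FPKM (49.5 to 79.6) and 102 FPKM (77.6 to 126). Treated WT was the highest and overlapped with treated Irf3/7-/- alone, and untreated Irf1-/- was the lowest and overlapped with treated Tmem173-/- alone. Within Irf1-/- BMDCs Casp1 rose 3.35-fold, close to the fold in WT, from a level that was already 2.42-fold below WT. The log2 difference of Irf1-/- from WT was -1.27 untreated and -1.19 treated, and both were called. In Irf3/7-/- BMDCs the change was 1.58-fold, with overlapping intervals, and the difference from WT was 0.38 untreated and -0.62 treated, neither of which was called.

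Casp12 (chromosome 9, 5345476 to 5373034), a relative of the inflammatory caspases, was low or near 0. Its level was 0.488 FPKM (0.260 to 0.702) in untreated and 2.24 FPKM (1.54 to 2.93) in treated WT BMDCs, 3.98-fold higher on the scale of FPKM + 0.1. In Tmem173-/- BMDCs it was 0.00605 FPKM (0 to 0.0305) and 0.0965 FPKM (0.0153 to 0.168). It was listed at 0 in untreated Irf1-/- BMDCs and at 0.0102 FPKM (0 to 0.0305) in treated ones, whereas Irf3/7-/- BMDCs had 0.593 FPKM (0.351 to 0.840) and 0.567 FPKM (0.321 to 0.809). Treated WT lay above all other conditions, Irf3/7-/- was level with untreated WT with or without c-di-GMP, and the 4 conditions of Tmem173-/- and Irf1-/- lay lowest, with intervals below those of WT and Irf3/7-/-. Against treated WT the log2 difference was -3.58 for Tmem173-/-, -4.41 for Irf1-/- and -1.81 for Irf3/7-/- BMDCs. Without treatment they were -2.47, -2.56 and 0.24, where no level reached 1 FPKM.

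Genes of T and NK cells were, like Casp12, lowest in Tmem173-/- and Irf1-/- BMDCs. The 7 markers of these cells summed to 391 and 357 FPKM in untreated and treated WT, to 373 and 995 FPKM in Irf3/7-/-, to 8.90 and 11.9 FPKM in Irf1-/-, and to 0.672 and 0.684 FPKM in Tmem173-/- BMDCs. Most of the WT and Irf3/7-/- sums came from Gzma, which encodes a granzyme. It was at 349 and 329 FPKM in WT, 315 and 900 FPKM in Irf3/7-/- and 5.55 and 8.40 FPKM in Irf1-/- BMDCs. Gzma was listed at 0 in both Tmem173-/- conditions, as was Ncr1 in untreated Tmem173-/- and in both Irf1-/- conditions. Against treated WT, 5 of 5 tested markers were lower in Tmem173-/-, 4 of 5 lower in Irf1-/- and 5 of 5 higher in Irf3/7-/- BMDCs. Over all genes tested, 13.5%, 4.91% and 4.61% were called in these directions. Casp12 was lower in all 3 treated knockouts. Without treatment, 6 of 6 tested markers were lower in Tmem173-/- and in Irf1-/- BMDCs and 1 of 6 was higher in Irf3/7-/- BMDCs. The shares of all genes there were 5.95%, 3.52% and 1.17%. These are bulk cultures, in which fewer cells of a type and less RNA per cell cannot be told apart. The part of other cell types in the level of Casp12 was not tested.

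Gsdmd (chromosome 15, 75862339 to 75867404), which encodes the pore-forming gasdermin D, was high in every condition. WT BMDCs had 62.8 FPKM (48.3 to 77.3) untreated and 126 FPKM (94.9 to 155) treated. Tmem173-/- BMDCs had 61.8 FPKM (46.4 to 77.0) and 55.8 FPKM (42.3 to 68.8). The levels were 43.1 FPKM (32.8 to 53.3) and 94.4 FPKM (71.7 to 117) in Irf1-/- and 58.8 FPKM (45.05 to 72.6) and 89.8 FPKM (68.4 to 111) in Irf3/7-/- BMDCs. The 3 treated conditions with STING were the highest and overlapped with one another. The change in WT was 1.997-fold (log2 range by the intervals 0.30 to 1.68), just under the threshold, and in Irf1-/- BMDCs it was 2.19-fold (0.43 to 1.83), just over it, and these ranges overlapped widely. In treated Tmem173-/- BMDCs Gsdmd was 2.25-fold lower than in treated WT, which was called. Among the other gasdermins, Gsdma, Gsdmc and their copies stayed below 0.1 FPKM in every condition, and Dfna5, the symbol of Gsdme in the table, lay between 1.15 and 2.01 FPKM.

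Pycard (chromosome 7, 127991373 to 127993867), which encodes the adaptor ASC, had a lower level after c-di-GMP, unlike the caspases. It was at 117 FPKM (88.3 to 145.5) in untreated and 83.1 FPKM (62.9 to 103) in treated WT BMDCs. In Tmem173-/- BMDCs the values were 118 FPKM (88.8 to 146) and 85.5 FPKM (64.5 to 106). Irf1-/- BMDCs had 82.7 FPKM (62.6 to 103) and 70.5 FPKM (53.5 to 87.5), and Irf3/7-/- BMDCs 93.2 FPKM (70.5 to 115) and 51.5 FPKM (39.1 to 63.9). The treated level was the lower in each of the 4 genotypes, STING or not, but the intervals lay apart in Irf3/7-/- BMDCs alone, and no difference was called. WT had a log2 difference of -0.49, Tmem173-/- of -0.46, Irf1-/- of -0.23 and Irf3/7-/- of -0.85.

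Nlrp3 (chromosome 11, 59542686 to 59566956), the sensor of the canonical inflammasome that responds to potassium efflux, varied least. It was at 19.9 FPKM (15.4 to 24.4) in untreated and 23.6 FPKM (18.3 to 28.9) in treated WT BMDCs. Tmem173-/- BMDCs had 25.3 FPKM (19.4 to 31.1) and 31.4 FPKM (24.1 to 38.6). Irf1-/- BMDCs had 21.1 FPKM (16.3 to 25.9) and 16.1 FPKM (12.4 to 19.7), and Irf3/7-/- BMDCs 24.0 FPKM (18.6 to 29.4) and 22.6 FPKM (17.5 to 27.7). Neighbouring levels overlapped throughout, and the 10 log2 differences lay between -0.55 and 0.41 with none called. In WT the deposited intervals allow a log2 change with c-di-GMP from -0.42 to 0.91, so a change within these bounds remains possible.

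Nlrc4 (chromosome 17, 74426295 to 74459108), which assembles with NAIP proteins, was at 4.19 FPKM (3.13 to 5.25) in untreated and 5.57 FPKM (4.18 to 6.95) in treated WT BMDCs. Tmem173-/- BMDCs had 5.54 FPKM (3.83 to 7.27) and 6.81 FPKM (4.99 to 8.65). The 4 conditions of Irf1-/- and Irf3/7-/- BMDCs lay between 3.16 and 3.31 FPKM. These 4 were the lowest whether treated or not, and the treated Irf3/7-/- interval (2.33 to 3.999) lay below that of treated WT, at a log2 difference of -0.80 that was not called. The log2 difference between treated Irf1-/- and WT was -0.73, with intervals that overlapped.

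Naip2 (chromosome 13, 100144063 to 100202092) recognises the rod protein of bacterial secretion systems and Naip5 (chromosome 13, 100211740 to 100247336) recognises flagellin. The genes are neighbours of much alike sequence, and reads they share could have been divided between them. Naip2 was at 11.1 FPKM (8.58 to 13.6) and 20.2 FPKM (14.7 to 25.8) in WT and at 15.8 FPKM (11.03 to 20.9) and 17.0 FPKM (11.9 to 22.2) in Tmem173-/- BMDCs. The levels of Naip2 were 9.05 FPKM (6.60 to 11.5) and 13.9 FPKM (10.1 to 17.8) in Irf1-/- BMDCs, and in Irf3/7-/- BMDCs at 10.6 FPKM (7.72 to 13.4) and 18.4 FPKM (13.5 to 23.5). Naip5 was at 3.77 FPKM (2.87 to 4.67) and 7.47 FPKM (5.79 to 9.15) in WT, at 4.61 and 4.499 FPKM in Tmem173-/-, at 3.33 and 5.51 FPKM in Irf1-/- and at 3.70 and 6.36 FPKM in Irf3/7-/- BMDCs. Both had a higher treated than untreated level in the 3 genotypes with STING, and of those 6 pairs only Naip2 in Irf1-/- BMDCs had intervals that overlapped. The changes were below 2-fold and none was called: log2 0.86 in WT, 0.62 in Irf1-/- and 0.80 in Irf3/7-/- for Naip2, and 0.97, 0.71 and 0.77 for Naip5. Naip6, further along the cluster, lay between 2.44 and 4.36 FPKM and was not called either. The ratio of Naip5 to Naip2 stayed between 0.265 and 0.395 over the 8 conditions.

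Nod2 (chromosome 8, 88647347 to 88688474), a sensor of muramyl dipeptide from bacterial peptidoglycan, signals through RIPK2 rather than a caspase. It was at 5.33 FPKM (4.09 to 6.57) in untreated and 13.4 FPKM (10.4 to 16.5) in treated WT BMDCs, 2.49-fold higher. In Tmem173-/- BMDCs it was at 3.95 FPKM (2.94 to 4.95) and 4.01 FPKM (3.01 to 4.99). Irf1-/- BMDCs had 2.77 FPKM (2.07 to 3.46) and 5.76 FPKM (4.42 to 7.09), and Irf3/7-/- BMDCs 3.71 FPKM (2.81 to 4.604) and 7.46 FPKM (5.74 to 9.18). Treated WT stood alone above all other conditions. Nod2 rose 2.04-fold in Irf1-/- BMDCs, and in Irf3/7-/- BMDCs the change of 1.99-fold had intervals apart but was not called. The log2 differences from treated WT were -1.72 in Tmem173-/- and -1.21 in Irf1-/- BMDCs, both called, and -0.84 in Irf3/7-/- BMDCs, not called. Nod2 was thus lower in treated Irf1-/- BMDCs and also had a log2 difference of -0.92 without treatment, with intervals apart.

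**Figure D4:**
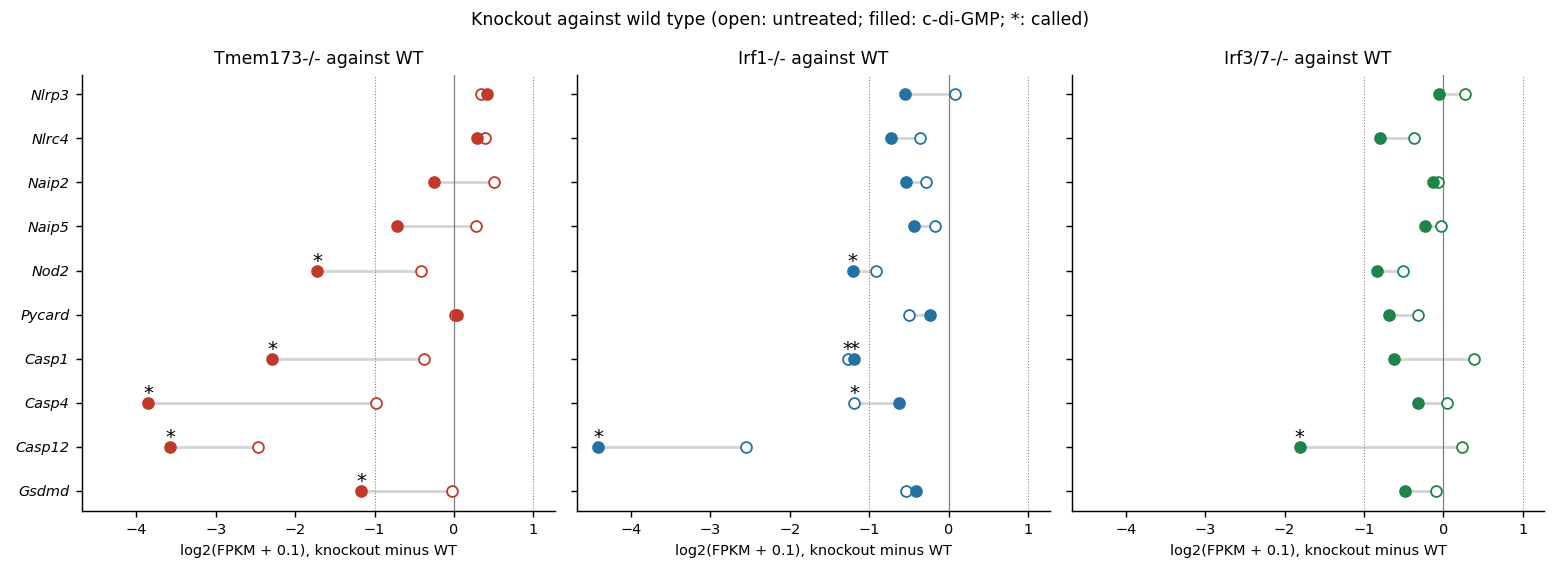
Difference in log2(FPKM + 0.1) between each knockout and WT (horizontal axes) for the 10 members (vertical axis), without treatment (open) and with c-di-GMP (filled), with a star above each called difference. In Tmem173-/- the treated points lie far to the left of the untreated ones for Naip5, Nod2, Casp1, Casp4, Casp12 and Gsdmd, while in Irf1-/- the Casp1 points nearly coincide (-1.27 and -1.19).

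Genes that act beside the members were read from lists of the same pathway. Of a list of 6 that holds Ripk2 and other NLR family genes, 3 rose with c-di-GMP in WT BMDCs and 1 fell. Over all genes tested, 10.5% rose and 9.96% fell. Ripk2, the kinase that Nod2 engages, was at 34.4 and 141 FPKM in WT, 32.8 and 99.5 FPKM in Irf1-/- and 35.8 and 129 FPKM in Irf3/7-/- BMDCs, and rose in each. Nod1, which senses another peptidoglycan fragment, rose from 6.70 to 22.9 FPKM in WT and from 1.84 to 13.6 FPKM in Irf1-/- BMDCs. Nlrc5, a regulator of class I antigen presentation, rose from 30.3 to 71.8 FPKM in WT and from 9.33 to 54.6 FPKM in Irf1-/- BMDCs, and Nlrc3 fell from 2.07 to 0.755 FPKM in WT. Like Casp1 and Casp4, 4 of these 6 were called lower in untreated Irf1-/- than in untreated WT BMDCs: Nod1, Nlrc5, Nlrc3 and Ciita, the class II regulator, against 3.52% of all genes. Nlrc3 was, like the T and NK cell genes, at its lowest in Tmem173-/- (0.0774 and 0.0835 FPKM) and Irf1-/- BMDCs (0.454 and 0.166 FPKM) and was at 4.48 and 3.32 FPKM in Irf3/7-/- BMDCs, and the part of those cells in its level was not tested. Ciita was also lower in all 3 treated knockouts than in treated WT, at 15.8, 13.6 and 18.9 against 38.5 FPKM.

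Of 10 other inflammasome sensors in the table, 6 were tested in WT and 2 fell, against 9.96% of all genes. These were Nlrp1a, from 5.62 to 2.51 FPKM, and Nlrp1b, from 2.27 to 0.315 FPKM. Both fell in Irf1-/- and Irf3/7-/- BMDCs as well and were higher in treated Tmem173-/- than in treated WT BMDCs. Nlrp10 was lower in treated Irf3/7-/- than in treated WT BMDCs, at 0.899 against 2.18 FPKM. Aim2, the sensor of cytosolic DNA, lay between 14.7 and 24.9 FPKM and was not called in any comparison. Casp6 was lower in treated Tmem173-/- than in treated WT BMDCs. Ninj1, which ruptures the membrane in late pyroptosis, rose from 54.7 to 159.6 FPKM in WT and also in Irf1-/- and Irf3/7-/- BMDCs.

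The guanylate-binding proteins, which bring caspase-11 to bacterial lipopolysaccharide, belong to a list of 10 licensing genes. In WT 4 of the 10 rose and 1 fell, against 10.5% and 9.96% of all genes. Gbp5 was at 57.5 and 398 FPKM in WT, 9.503 and 12.8 FPKM in Tmem173-/-, 9.05 and 224 FPKM in Irf1-/- and 66.7 and 228 FPKM in Irf3/7-/- BMDCs. Gbp2, Gbp3 and Gbp7 rose too, from 382, 31.1 and 23.1 FPKM in untreated WT to 1036, 175 and 54.6 FPKM in treated WT. In Irf1-/- BMDCs they rose from 39.7, 6.11 and 3.96 FPKM to 325, 64.8 and 17.6 FPKM. Each of these 3 was lower in treated Irf1-/- than in treated WT BMDCs, unlike Casp4, whose intervals overlapped there. Gm12250, which encodes the GTPase IRGB10, was at 40.6 and 80.1 FPKM in WT and rose from 0.223 to 12.5 FPKM in Irf1-/- BMDCs. Of the 10 genes, 4 were lower (Gbp2, Gbp3, Gbp7 and Gm12250) and 1 higher (Txnip) in treated Irf1-/- BMDCs, against 4.91% and 2.65% of all genes. In untreated Irf1-/- BMDCs 5 were lower, these 4 and Gbp5, and none higher, against 3.52% and 1.26%. The same 5 were lower and none higher in untreated Tmem173-/- BMDCs, against 5.95% and 5.04%. Txnip, which encodes a protein that can bind NLRP3, fell in WT from 92.2 to 43.1 FPKM. P2rx7, the ATP-gated channel that triggers NLRP3, was not called with c-di-GMP but was higher in treated Tmem173-/- and Irf3/7-/- than in treated WT BMDCs, at 8.90 and 11.5 against 4.20 FPKM.

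Of 6 genes for IL-1 and IL-18 cytokines and their antagonists, 5 rose in WT and 1 fell, against 10.5% and 9.96% of all genes. Il1a and Il1b each overlap another gene of the table. Il1b was at 154 and 611 FPKM in WT and at 85.9 and 245 FPKM in Irf3/7-/- BMDCs, but at 120 and 113 FPKM in Irf1-/- BMDCs, in which Casp1 rose. Il1a rose from 92.7 to 389.5 FPKM and Il18 from 1.36 to 4.92 FPKM in WT. The antagonists rose as well: Il1rn from 114 to 952 FPKM and Il18bp from 15.9 to 113 FPKM. Il18bp was 27.3-fold lower in treated Irf1-/- than in treated WT BMDCs, at 4.04 FPKM. Untreated Irf1-/- BMDCs were already called lower than untreated WT, at 1.199 against 15.9 FPKM. Within Irf1-/- BMDCs Il18bp was called higher with c-di-GMP. In Tmem173-/- BMDCs Il18bp was at 4.42 FPKM untreated and 3.68 FPKM treated, each called lower than in WT. The decoy receptor gene Il1r2 fell from 19.6 to 6.16 FPKM in WT and was at 55.5 FPKM in treated Tmem173-/- BMDCs.

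Markers of other cells differed between the cultures beyond those of T and NK cells. The 9 neutrophil genes summed to 20645 and 15047 FPKM in Tmem173-/- and to between 1487 and 4135 FPKM in the other 6 conditions. S100a8 gave 10351 and 7513 FPKM of the Tmem173-/- sums, and its FPKM lay above its own upper bound in every condition. Of the 9, 8 were higher in Tmem173-/- than in WT both untreated and treated, against 5.04% and 12.9% of all genes. The 6 macrophage genes summed to 82.6 to 432 FPKM, with the highest sums in Tmem173-/-, but they did not move together. Against WT, 2 of 6 were higher and none lower in untreated Tmem173-/- BMDCs, against 5.04% and 5.95% of all genes. In treated ones 2 were higher and 1 lower, against 12.9% and 13.5%. In Irf1-/- BMDCs 3 were lower untreated and 2 treated, against 3.52% and 4.91%. In Irf3/7-/- BMDCs 2 were lower untreated and 1 treated, against 0.863% and 2.69%. None of the 6 was higher in these 2 knockouts. Some macrophage genes also respond to c-di-GMP: in WT 3 of the 6 rose with it and 1 fell, against 10.5% and 9.96%. Csf1r was at 204 FPKM in treated Tmem173-/- and 48.6 FPKM in treated WT, and Mertk at 3.74 and 16.9 FPKM. Mertk was at 4.89 FPKM in untreated WT. The 5 basophil and mast cell genes summed to 97.1 and 150.0 FPKM in Irf3/7-/- and to at most 57.0 FPKM elsewhere. Their part in the levels of the members was not tested.

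**Figure D5:**
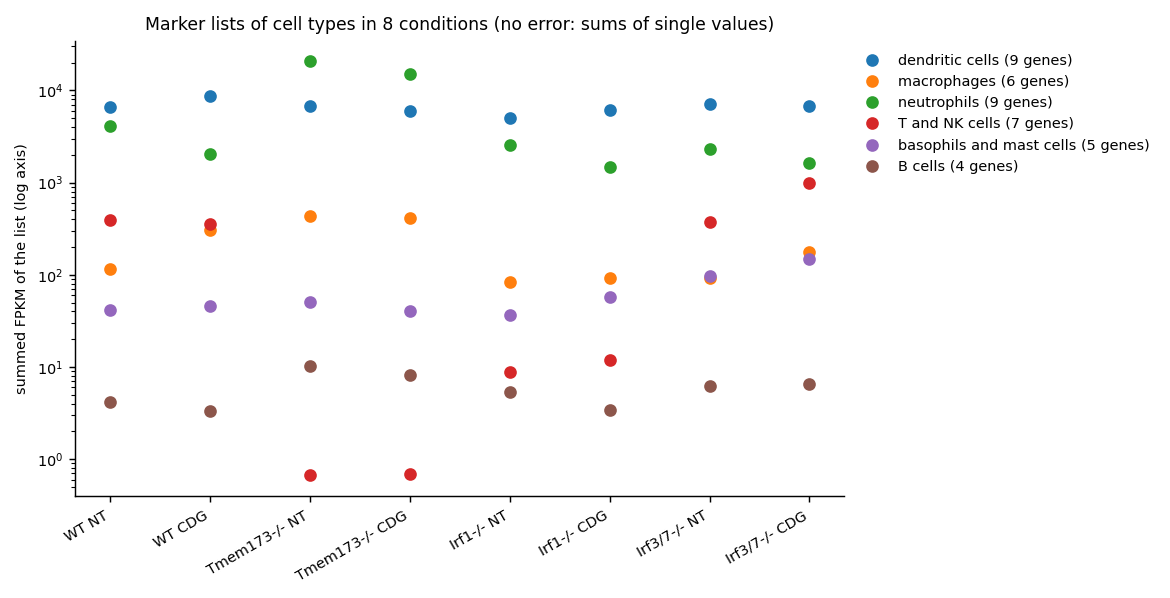
Summed FPKM of 6 lists of cell type markers (vertical axis, log scale) in 8 conditions (horizontal axis), 1 colour per list, with no error since each sum is of single values. T and NK cell genes are lowest in Tmem173-/- (0.672 and 0.684 FPKM) and neutrophil genes highest there.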

How the data were processed

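RNA-seq of 16 BMDC samples in 8 conditions was deposited as 1 Cuffdiff table of 23356 genes. The authors combined the 2 samples of a condition, and the deposited values are FPKM with a lower and an upper bound and a status word. The submitters' processing notes name Cuffdiff version 1.06 and the build mm9. The listed loci, however, lay on the same-named gene of GRCm38 (GENCODE M21) for 21454 of 21681 genes (99.0%), so positions are given as GRCm38. Libraries were made with a stranded mRNA kit, and strand-specific counting is stated for a Seqmonk analysis. The aligner, the annotation and the strand setting of the Cuffdiff run are not given in the sources used here. In that annotation Nlrc4, Naip2 and Pycard each overlap a gene model or pseudogene that is not in the table. A further 4 columns, of another knockout that has no listed sample, were not used.

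Each condition was read as a single value, without a test between samples. Differences were taken of log2(FPKM + 0.1), which understates the change of low genes, in 10 comparisons: treated against untreated within each genotype, and each knockout against WT with and without treatment. The call needed more than 2-fold, intervals that did not overlap, at least 1 FPKM on 1 side and the status OK on both. The calling step was run on simulated data with planted changes well above the threshold and noise drawn from the deposited intervals. That run does not cover changes near 2-fold, low genes or the spread between samples. The study names a target depth, but the depth reached is not in the file used. Over the 4710 genes that had 10 FPKM or more in all conditions, the bounds typically lay 25.2% to 25.7% of the FPKM away from it (medians per condition). Despite the status OK, 70 to 105 genes per condition had an upper bound below their FPKM, but no member did. Named genes are all members, the targeted genes, the genes of the other lists that were called in WT with c-di-GMP or in a treated knockout, and the 3 genes of nearest pattern to each member. Some results of the list of other caspases are not reported here. The members and lists were chosen with earlier results of these data known. Alternatives were pseudocounts of 0.01 and 1 FPKM, no minimum or one of 5 FPKM, thresholds of 1.5 and 4, median centring, fold alone and intervals alone. Promoter sequences came from RefSeq (GRCm38.p6). Python 3.11.15, numpy 2.4.6, pandas 2.3.3 and matplotlib 3.10.9 were used.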

Additional observations from a re-analysis of the deposited data

How the results depend on the processing

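With a threshold of 1.5, 7 members rose in WT, 4 rose and 1 fell in Irf3/7-/-, 3 were lower in treated Irf3/7-/- and 1 in untreated Tmem173-/- than in WT BMDCs. Intervals alone gave the same counts (7, 5, 3 and 1). At the threshold of 1.5, 1574 of all 11201 genes tested rose in WT, and 1522 rose and 1285 fell of 11283 in Irf3/7-/- BMDCs. Lower than in WT were 485 of 11209 genes in treated Irf3/7-/- and 846 of 11101 in untreated Tmem173-/- BMDCs. A threshold of 4 left 1 member, Casp4, in WT and 1 in Irf1-/- BMDCs, 3 lower in treated Tmem173-/- (Casp1, Casp4 and Casp12), 1 in treated Irf1-/- (Casp12) and 0 in treated Irf3/7-/- and in untreated Irf1-/- BMDCs. At that threshold 399 of all 11201 genes tested rose in WT and 420 of 11164 in Irf1-/- BMDCs. Lower than in WT were 737 of 11318 genes in treated Tmem173-/- and 175 of 11079 in treated Irf1-/- BMDCs. The counts were 80 of 11209 in treated Irf3/7-/- and 153 of 11017 in untreated Irf1-/- BMDCs. A pseudocount of 0.01 FPKM added Nod2 in Irf3/7-/- BMDCs, for 2 members, and one of 1 FPKM ended the call of Nod2 in Irf1-/- BMDCs. Over all genes, 1168 of 11283 rose in Irf3/7-/- BMDCs with the former and 902 of 11164 in Irf1-/- BMDCs with the latter. A minimum of 5 FPKM left Casp12 untested, so that treated Irf3/7-/- BMDCs had 0 lower members, and without a minimum Casp12 was lower in untreated Tmem173-/- BMDCs, 1 member in all, and in untreated Irf1-/- BMDCs, for 3 members. Over all genes, 183 of 8333 were lower in treated Irf3/7-/- BMDCs with a minimum of 5 FPKM. Without a minimum, 920 of 23248 were lower in untreated Tmem173-/- and 502 of 23248 in untreated Irf1-/- BMDCs. Among results for single members under an alternative, 796 kept their call or stayed uncalled, 29 gained a call, 14 lost it and none turned its direction. The 796 include differences that were not called in the first place. Of the 14 losses, 13 came from the threshold of 4. Results left untested, such as Casp12 at a minimum of 5 FPKM, are not counted. Casp4 kept its call with c-di-GMP in WT, Irf1-/- and Irf3/7-/- BMDCs under all 9 alternatives. No paired analysis was possible because the authors combined the replicates before deposition and the columns carry no replicate number. For the same reason no replicate could be left out. The precision is that of the deposited intervals, which cannot be checked against samples.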

Other observations

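The balance between members shifted with c-di-GMP, on the scale of FPKM, which is scaled by length. The ratio of Casp1 to Pycard was 0.424 in untreated and 1.89 in treated WT BMDCs, 0.247 and 0.974 in Irf1-/-, 0.693 and 1.98 in Irf3/7-/-, and 0.325 and 0.375 in Tmem173-/- BMDCs. The ratio of Casp4 to Casp1 was 0.406 and 0.798 in WT, 0.427 and 1.18 in Irf1-/-, 0.320 and 0.983 in Irf3/7-/-, and 0.266 and 0.268 in Tmem173-/- BMDCs. Casp4 thus had the higher level of these 2 caspases in treated Irf1-/- BMDCs alone, where their intervals overlapped. The ratio of Casp4 to Gsdmd was 0.320 and 0.998 in WT and 0.164 and 0.154 in Tmem173-/- BMDCs. No error is given for these ratios, since each comes from single values.

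Genes of nearest pattern were found by the root mean square difference of log2(FPKM + 0.1), centred on each gene, over the 8 conditions, among 9268 genes with at least 5 FPKM in one of them. For Casp4 they were Lgals3bp (0.16), Il15ra (0.17) and Il15 (0.22), a cytokine and the receptor chain that presents it among them. For Casp1 they were H2-M3 (0.22), Hk3 (0.29) and Psme2 (0.29), for Gsdmd Lmbr1l (0.09), Panx1 (0.11) and Tmem192 (0.11), and for Nod2 S1pr2 (0.20), Hpse (0.20) and Tpst1 (0.22). Those of Casp12 were 4933412E12Rik (0.50), Gm8221 (0.57) and Apol7c (0.59), at a wider distance. Apol7c was at 66.8 and 103 FPKM in WT and 58.8 and 96.3 FPKM in Irf3/7-/-, against 6.92 to 17.4 FPKM in Irf1-/- and Tmem173-/- BMDCs. The nearest genes were Cyp4v3 (0.10), Ccr1 (0.11) and Syne1 (0.12) for Naip2, Zfp523 (0.07), Sptlc2 (0.08) and Atp1b3 (0.09) for Naip5, Phactr2 (0.10), Gm13251 (0.11) and Znf41-ps (0.16) for Nlrc4, Prpf39 (0.10), Pan2 (0.12) and Ppp3ca (0.12) for Nlrp3, and Lage3 (0.13), Eci1 (0.13) and Stambpl1 (0.13) for Pycard. Between members the nearest ranks were those of Gsdmd, the 16th nearest gene to Nod2, of Nod2, the 30th nearest to Casp1, and of Naip5, the 31st nearest to Gsdmd and the 35th nearest to Naip2. To Nod2, Naip5 was the 166th and Casp1 the 290th nearest. No error is given for these distances, since each comes from single values. For a member that varied little, many genes lay near. Nlrc4, at 0.30, was the 1779th nearest to Nlrp3, whose own log2 standard deviation over the conditions was 0.28. The order of the named genes is therefore uncertain.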
